A study of Mus musculus with 12 samples.

Results

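The heat shock proteins examined here were 10 genes, chosen by symbol with earlier results of these data known, among the 28987 genes listed: Hspa1a, Hspa1b, Hspa8, Hsph1, Dnajb1, Dnaja1, Hsp90aa1, Hsp90ab1, Hspd1 and Hspe1. Of these, 9 passed the filter on low values (3 or more libraries at 1 TPM or above, TPM being transcript abundance corrected for transcript length and library total), as did 13456 genes in all, and Hspa1b did not. They are often grouped as cytosolic heat shock proteins, but this name holds for 8 of them. Hspd1 and Hspe1 encode the chaperonin of the mitochondrial matrix, and they were kept as the mitochondrial pair of the group.

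RNA was sequenced from neutrophils of FVB mice, either wild-type (WT) or carrying MRP8-Bcl2, a transgene in which regulatory regions of human MRP8 (a gene of myeloid cells) drive human Bcl-2, which blocks apoptosis. All mice, controls included, had received 2 mL thioglycollate into the peritoneum, and the labels place collection 6 h after the injection, while the methods give other times. Sorted cells came either from bone marrow, abbreviated BM, or out of the peritoneal cavity, abbreviated PT, and with the genotype this made 4 groups of 3 libraries each. The labels give the source cells as macrophages, whereas the series' design text and the methods give neutrophils. The ages of these mice are not given in the sources used here. The methods describe sorting cells of both tissues from each mouse, so BM and PT libraries can share a mouse, but the library columns do not say which do, and the tests treat libraries as independent. Nothing read here says that the 3 libraries of a group came from separate mice, and p-values measure the spread between these libraries. Libraries are named by the number in their column name.

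Heat shock proteins are chaperones, which hold and refold other proteins. HSP70 proteins (Hspa1a, Hspa1b, Hspa8) bind short unfolded stretches and release them by an ATP cycle, which J proteins (Dnajb1, Dnaja1) start and exchange factors (Hsph1) reset. HSP90 (Hsp90aa1, Hsp90ab1) takes over partly folded clients such as kinases and steroid receptors. HSP60 (Hspd1) forms a barrel closed by a lid of HSP10 (Hspe1) in mitochondria. The transcription factor HSF1 raises many of these genes after heat or other damage to proteins, through heat shock elements, which are repeats of the unit NGAAN in alternating direction.

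The depth of the libraries was limited and uneven. By the size of the smallest steps in the values, 1 read on a transcript of 1000 nt was worth 0.341 to 1.61 TPM. A set of 108 genes whose transcripts hold an unbroken stretch of A or of T (31 bases or longer) took 8.93 to 65.6% of the TPM, and since TPM has a fixed total the other genes share what is left. The Bcl2 gene was at 166 to 333 TPM in the 3 BM Bcl2 libraries, at 82.8 and 58.6 TPM in libraries 7 and 8 labelled PT Bcl2, and at 0.695 TPM in library 9 labelled PT Bcl2, inside the range of the 6 WT libraries (0.219 to 2.37 TPM). The level in library 9 goes against its label, so the tests of PT Bcl2 were repeated without it. All 8 neutrophil markers reached 1 TPM in at least 1 library of each group. Their summed level was 199436 to 345539 TPM (BM WT), 78671 to 224968 TPM (BM Bcl2), 15352 to 54555 TPM (PT WT) and 19330 to 69129 TPM (PT Bcl2).

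The regions before the gene starts are shown first, because they set apart the members that are near copies from those that share a start region. Sequences are RefSeq windows (GRCm38.p6), which held 7 of the 10 members (all but Hspa8, Hsp90aa1 and Hsp90ab1), printed 5′ to 3′ on the strand of the gene. Hspa1a (chr17:34969190-34972156) and Hspa1b (chr17:34956436-34959238) are genes of 1 exon on the minus strand, 9951 bases apart. The 250 bases before their starts, chr17:34972157-34972406 and chr17:34959239-34959488, differ at 3 bases (98.8% identical). Capitals mark a match to GAANNTTC, a pair of heat shock units.

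Hspa1a: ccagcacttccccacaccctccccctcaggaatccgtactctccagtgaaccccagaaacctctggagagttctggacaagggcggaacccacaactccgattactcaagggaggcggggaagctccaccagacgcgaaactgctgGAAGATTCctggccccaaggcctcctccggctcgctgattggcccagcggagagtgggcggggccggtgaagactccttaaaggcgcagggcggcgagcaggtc
Hspa1b: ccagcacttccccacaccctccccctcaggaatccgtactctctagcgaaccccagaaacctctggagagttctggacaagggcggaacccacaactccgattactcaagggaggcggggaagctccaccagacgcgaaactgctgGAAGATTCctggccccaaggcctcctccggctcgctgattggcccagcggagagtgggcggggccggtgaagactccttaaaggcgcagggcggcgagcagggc

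Hspd1 (chr1:55077835-55088243, minus strand) and Hspe1 (chr1:55088132-55091307, plus strand) lie head to head, and their annotated ends overlap by 112 bases. The window of Hspe1 and 1 of the 2 windows of Hspd1 share 285 of 300 bases, and both hold the same run of heat shock units (within chr1:55088053-55088082), read from opposite strands. The run lies before the start of Hspe1 and before the start on which that Hspd1 window is placed, which is inside the gene as annotated here. The other Hspd1 window, at the outer start, held no match. In these 30-base pieces capitals mark the whole run of units. The piece of Hsph1 (chr5:149636351-149636380, minus strand) is shown because Hsph1 was the only other member with a run of 3 units in its windows. That run lies after the starts on which the Hsph1 windows are placed, so the piece printed is the pair TTCNNGAA (capitals) before them. Both lie inside the gene as annotated here, whose start is at 149636376.

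Hspd1: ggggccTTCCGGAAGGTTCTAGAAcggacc
Hspe1: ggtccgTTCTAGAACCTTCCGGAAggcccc
Hsph1: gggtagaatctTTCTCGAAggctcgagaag

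Searched on both strands of all 32851 windows of 300 bases (250 before and 50 after a start), GAANNTTC was in 7.86% of windows and in those of 6 of the 7 members (not Dnajb1). TTCNNGAA was in 8.52% of windows and in 3 members. The run of 3 units, GAANNTTCNNGAA or TTCNNGAANNTTC, which contains both pairs, was in 0.6027% of windows and in Hspd1, Hspe1 and Hsph1. Counted by window, like the percentages, GAANNTTC was in 7 of the 12 windows of the members, TTCNNGAA in 4 and the run in 4. These windows are not independent, since Hspd1 and Hspe1 share the same run and Hspa1a and Hspa1b are near copies. A match to these letters is a description and was not tested as a binding site.

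The members differed in level by more than 2 orders of magnitude. Ordered by median TPM over the 12 libraries, Hspa8 (the constitutive HSP70, at 230 TPM) came before Hsp90aa1 (the inducible HSP90, at 208), Hsp90ab1 (the constitutive HSP90, at 149.6), Dnaja1 (a J protein partner of Hspa8, at 139.6), Hspe1 (31.2), Hspd1 (22.5), Dnajb1 (a stress-inducible J protein, at 15.9), Hsph1 (an exchange factor of the HSP110 family, at 10.4), Hspa1a (1.78) and Hspa1b (0.404). Neighbours in this order were not all apart. The higher of the pair was higher in 12 of 12 libraries for Dnaja1 over Hspe1 and in 11 of 12 for Hsph1 over Hspa1a, but in only 8 of 12 for each step among the top 4 genes, in 8 of 12 for Hspe1 over Hspd1 and in 7 of 12 for Hspa1a over Hspa1b. The order therefore had 2 clear steps, below the 4 abundant cytosolic chaperones and above the inducible HSP70 pair. The 10 genes summed to 420 to 2349 TPM per library.

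**Figure D1:**
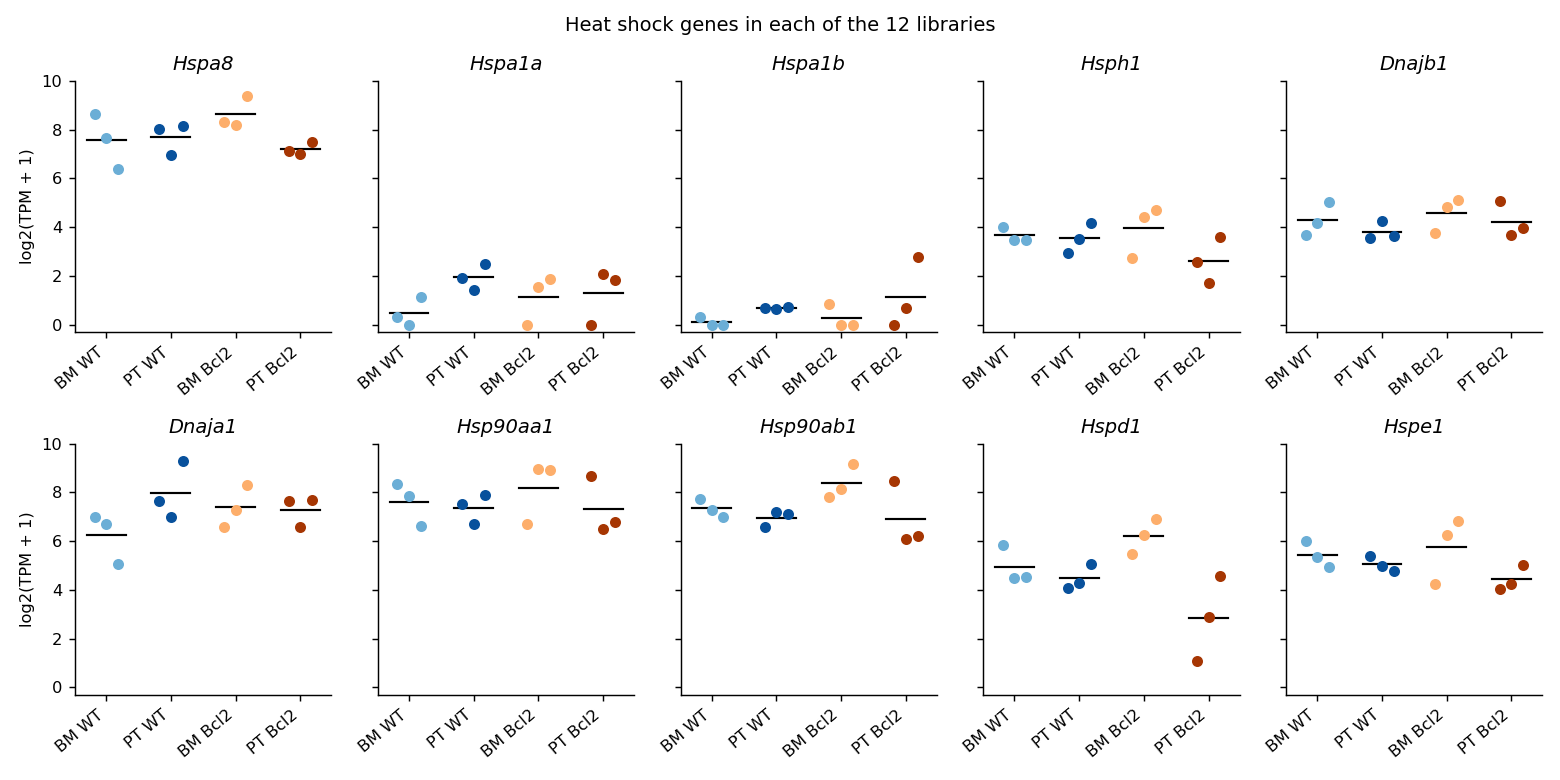
Level of each of the 10 genes on the log2(TPM + 1) scale, with 1 point per library and the mean of each group as a black line. Hspa1a and Hspa1b lie lowest (at most 5.87 TPM), the other 8 genes were above 0 in all 12, and Hspd1 in PT Bcl2 lies below all 3 BM Bcl2 libraries.

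The classical stress genes Hspa1a and Hspa1b, whose products are the inducible HSP70, were barely detected. BM WT libraries 4 to 6 held Hspa1a at 0.236, 0 and 1.22 TPM, and PT WT libraries 10 to 12 at 2.79, 1.65 and 4.58 TPM. BM Bcl2 libraries 1 to 3 held it at 0, 1.91 and 2.69 TPM, and libraries 7 to 9, labelled PT Bcl2, at 0, 3.22 and 2.58 TPM. The WT groups did not overlap and the Bcl2 groups did.

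These values stand for few reads, 0 to 38.0 estimated per library for Hspa1a, where 3 reads were worth 0.281 to 1.33 TPM. In the same library order Hspa1b was at 0.247, 0 and 0 TPM (BM WT), 0.587, 0.561 and 0.632 TPM (PT WT), 0.782, 0 and 0 TPM (BM Bcl2) and 0, 0.606 and 5.87 TPM (labelled PT Bcl2). Its value of 5.87 TPM, an estimated 30.3 reads, was in library 9 alone, and without that library no other exceeded 0.782 TPM. The transcripts of the pair are near copies: 63.8% of the 31-base words of Hspa1a also occur in Hspa1b, so the split between them is uncertain.

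Hspa8, which folds new proteins and uncoats clathrin vesicles in unstressed cells, stood at 398, 202 and 81.8 TPM (BM WT) against 257, 123 and 286 TPM (PT WT). In BM Bcl2 it was at 314, 293 and 672 TPM, above all 3 libraries labelled PT Bcl2 (140.0, 126 and 177 TPM). The WT groups overlapped and the Bcl2 groups did not. Its exchange factor Hsph1 ranged from 2.29 TPM in library 8 to 24.9 TPM in library 3, and all groups overlapped.

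Dnaja1, the more abundant J protein, stood at 125, 104 and 32.7 TPM (BM WT) against 202, 127 and 632 TPM (PT WT). In Bcl2 mice it stood at 94.7, 152 and 319 TPM (BM) against 198, 94.8 and 203 TPM (labelled PT). The WT groups were apart by a narrow margin, with library 12 far above the rest, and the Bcl2 groups overlapped. Dnajb1 ranged from 10.7 to 33.8 TPM with overlap between all groups.

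The 2 HSP90 genes were widely spread within groups. Hsp90aa1 ranged from 98.1 to 329 TPM (BM WT), 102 to 235 TPM (PT WT), 103 to 496 TPM (BM Bcl2) and 90.8 to 407 TPM (labelled PT Bcl2). Hsp90ab1 stood at 215, 153 and 128 TPM (BM WT), 93.6, 147 and 136 TPM (PT WT), 222, 284 and 579 TPM (BM Bcl2) and 349, 66.3 and 72.5 TPM (labelled PT Bcl2). In BM, Hsp90ab1 was thus higher in each Bcl2 library than in each WT library, and library 7 held high levels of both HSP90 genes among the libraries labelled PT Bcl2.

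Of the mitochondrial pair, Hspd1 ranged more widely than its partner. Hspd1 stood at 56.7, 21.3 and 22.1 TPM (BM WT) against 15.9, 18.5 and 32.0 TPM (PT WT). In Bcl2 mice it stood at 43.8, 75.2 and 120 TPM (BM) against 1.10, 6.34 and 22.95 TPM (labelled PT). Those last 3 libraries were far apart, and the lowest of them, library 7, rested on an estimated 2.98 reads. Hspe1 stood at 64.2, 39.4 and 29.7 TPM (BM WT), 40.5, 30.7 and 26.5 TPM (PT WT), 17.96, 74.9 and 113 TPM (BM Bcl2) and 15.5, 17.9 and 31.7 TPM (labelled PT Bcl2), with overlap in both genotypes. For Hspe1 in Bcl2 only library 9 lay above a BM library, and only above library 1 (17.96 TPM, an estimated 13.9 reads). Libraries 7 and 8 lay below each BM Bcl2 library. Library 8 did so narrowly (17.92 against 17.96 TPM, where 1 read was worth 0.992 TPM in library 8).

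The first comparison asked how the members differed between neutrophils recruited to the peritoneum and those in bone marrow. In Bcl2 mice Hspd1 was lower in PT, at 10.1 ± 11.4 against 79.8 ± 38.5 TPM in BM (mean ± SD, n = 3 each). The log2 fold change, on the scale of TPM + 1, was -3.38 (SE 0.804, 95% confidence interval -5.09 to -1.66) with an adjusted p of 0.0108 (limma over the 13456 genes). It was the 1 member of 9 called lower (adjusted p under 0.05 and at least 2-fold) and none was called higher, against a background of 19.1% of all tested genes called lower and 2.31% higher (21.4% in all). A share of 1 in 9 is no more than that background. Without library 9 the change was -4.25 and the adjusted p 0.00412, so the call did not need that library. Without library 3 it was -3.03 with an adjusted p of 0.0533.

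In WT mice no member was called, where 1.59% of all tested genes were called higher and 1.22% lower (2.81% in all). Hspd1 was at -0.48 (SE 0.804, adjusted p = 0.814). At an unadjusted p under 0.05 there was 1 member, Dnaja1, beside 1373 higher and 850 lower of all 13456 tested genes. Dnaja1 had a log2 fold change of 1.73 (SE 0.700, 95% interval 0.24 to 3.22, adjusted p = 0.226). Hspa1a followed at 1.45 (SE 0.733, interval -0.11 to 3.01, adjusted p = 0.338). Of the 9 tested members, Hspa1a and Dnaja1 were higher in each PT WT library than in each BM WT library, as were 14.9% of all tested genes (7.97% were lower in that way). In Bcl2, Hspa8 and Hspd1 were lower in each PT library than in each BM library, as were 32.6% of all tested genes (5.18% were higher in that way). Both hold without library 9, whose Hspa8 and Hspd1 were the highest of the libraries labelled PT Bcl2. Without library 9, Hspe1 (narrowly) and Hsph1 were also lower in libraries 7 and 8 than in each BM Bcl2 library, but 2 against 3 libraries separate more easily. The share of all tested genes apart without library 9 was not counted, so the gap in Hspe1 and Hsph1 is not a result about these members.

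Markers of other cells and stages differed between the tissues in the same libraries. Genes of proliferating cells summed to 213 to 869 TPM (BM WT), 493 to 1592 TPM (BM Bcl2), 59.95 to 109 TPM (PT WT) and 37.8 to 56.8 TPM (PT Bcl2), with 7 of 7 called lower in Bcl2 and 3 of 7 in WT. Granule genes of immature granulocytes fell in 8 of 8 tested in Bcl2 and 7 of 8 in WT, and summed to 10921 to 31572 TPM in BM and 78.2 to 218 in PT. B cell markers summed to 32.9 to 268 TPM in BM and 239 to 1433 in PT, all 6 reaching 1 TPM in at least 1 library of each group, while macrophage markers summed to 54.3 to 269 TPM in BM and 160.0 to 743 in PT. Of 9 tested macrophage markers none was called in WT, in Bcl2 or averaged, with 8 and 6 of them above 0 (log2 change) in WT and Bcl2. Of 6 B cell markers 1 was higher in Bcl2 and 3 averaged over genotypes. Of 5 mast cell markers 1 was higher in WT, 0 in Bcl2 and 3 averaged, and of 4 tested erythroid genes 1 was lower in WT and 3 in Bcl2 (median log2 change -4.19). None of 4 tested T cell markers was called, and of 2 tested eosinophil genes 1 was lower in Bcl2 and the other had a log2 change above 0 in both genotypes. Without library 9, 1 macrophage marker was called higher averaged over genotypes and 0 in Bcl2. In Bcl2, 1 B cell marker was then higher and 1 lower, 1 mast cell marker was higher and 2 erythroid genes were lower. The counts of 7 proliferation genes and 8 granule genes lower in Bcl2 stayed the same. The part of these cells in the chaperone values was not tested, and in bulk RNA fewer cells of a type and less RNA per cell cannot be told apart.

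Values of the members have to be read against the whole library. The median change of all tested genes was 0.22 in WT and -1.02 in Bcl2 (log2), and the median of the 9 members was -0.25 and -1.33. In Bcl2 mice Hspa8 (-1.43, SE 0.596, adjusted p = 0.0960), Hsp90ab1 (-1.47, SE 0.625, adjusted p = 0.102), Hsph1 (-1.33, SE 0.738, adjusted p = 0.203) and Hspe1 (-1.33, SE 0.669, adjusted p = 0.160) thus lay close to the median gene. With each library centred on its median, the median of all genes in Bcl2 became 0.57, the genes called became 12.2% higher and 3.47% lower, those 4 genes were between 0.12 and 0.26, and Hspd1 was at -1.79 (adjusted p = 0.0909). With TPM rescaled without the A- or T-rich genes, Hspd1 was at -2.73 (adjusted p = 0.0803), so the call in Bcl2 depended on the scaling and its direction did not.

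**Figure D2:**
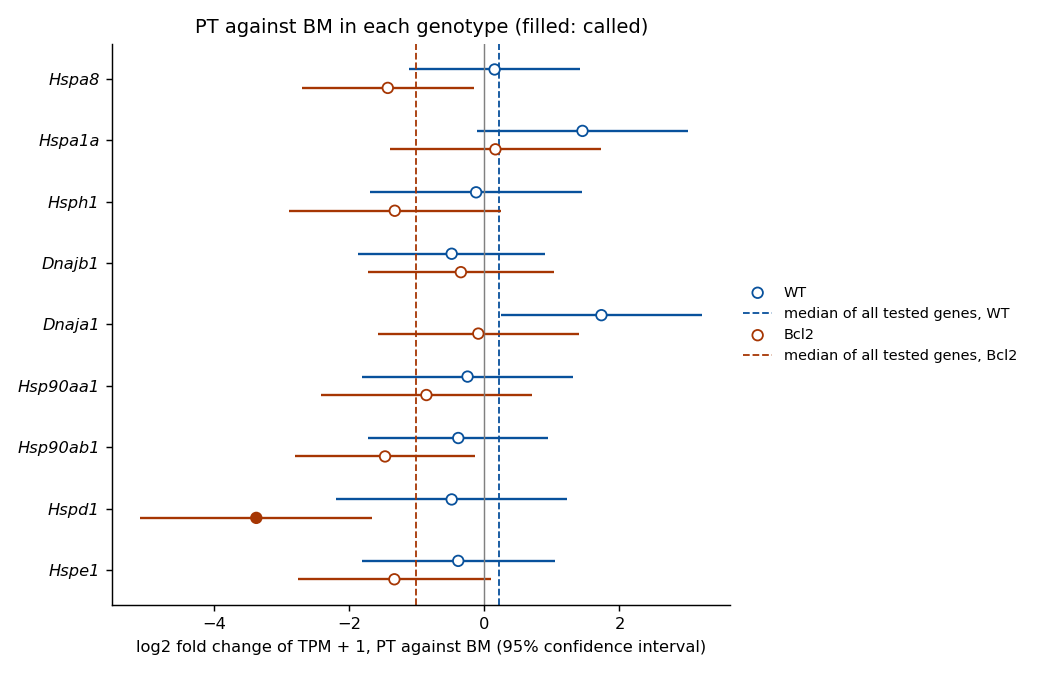
Change between PT and BM of the 9 tested members in WT and in Bcl2, as log2 fold change of TPM + 1 with its 95% confidence interval. Dashed lines give the median of all tested genes in each genotype (0.22 and -1.02). Only Hspd1 in Bcl2, at -3.38, is filled as called.

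Averaged over both genotypes, Hspd1 was the 1 member called (log2 fold change -1.93, SE 0.569, adjusted p = 0.0282), where 14.1% of all tested genes were called lower and 5.13% higher (19.2% in all; 6.41% and 13.0% with libraries centred on their medians). The change was -2.37 without library 9 (adjusted p = 0.00746), and the call was lost without library 2, 3, 4, 10 or 11 in turn (-1.71 to -1.92, adjusted p 0.0560 to 0.0760). With libraries centred on their medians, Dnaja1 was called higher at 1.51 (adjusted p = 0.0219) and Hspd1 was at -1.24 (adjusted p = 0.0894).

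The second comparison asked whether the difference between tissues depended on genotype. No member was called, as was the case for nearly all genes (0.0149% of tested genes called, adjusted p alone). Hspd1 was the 1 member with an unadjusted p under 0.05, beside 49 higher and 2230 lower of all 13456 tested genes. Its change was lower in Bcl2 than in WT by -2.89 on the log2 scale (SE 1.14, interval -5.32 to -0.47, adjusted p = 0.258, limma), beside a median of -1.18 over all tested genes. Without library 9 it was -3.76 (SE 1.03, adjusted p = 0.167), beside a median of -1.21. That Hspd1 was called in Bcl2 and not in WT is therefore not shown to be a difference between the genotypes.

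Bcl2 and WT neutrophils were then compared directly within each tissue. In BM no member was called by limma, and none had an unadjusted p under 0.05, with 0.0149% of all tested genes called higher and 0.00743% lower (0.0223% in all). At that unadjusted threshold BM had 890 genes higher and 101 lower among all tested genes. Hspd1 was the member furthest above WT there (log2 fold change 1.27, interval -0.45 to 2.98, adjusted p = 0.723), and Hsp90ab1, at 1.04 (interval -0.30 to 2.37, adjusted p = 0.719), was the 1 tested member whose BM groups did not overlap, as was so, in the higher direction, for 10% of all tested genes (1.17% in the lower direction). In PT no member was called and none had an unadjusted p under 0.05, with 0.0297% of all tested genes called. At that unadjusted threshold PT had 60 genes higher and 1649 lower among all tested genes. The PT groups overlapped for all 9 members (0.587% of all tested genes were higher and 18.8% lower without overlap). For Hspd1, Hspe1 and Hsph1 the overlap came from library 9, as libraries 7 and 8 lay below each PT WT library. The share of all tested genes apart in that way was not counted, and 2 against 3 libraries separate more easily. The median change of all tested genes was -0.71 without library 9. A difference between genotypes in these 3 genes is therefore not shown. Hspd1 was at -1.63 (interval -3.34 to 0.09, adjusted p = 0.415) and, without library 9, at -2.50 (interval -4.15 to -0.85, adjusted p = 0.190). Most of these intervals reach past 2-fold, so equal levels are not shown either.

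The make-up of the heat shock transcripts was next compared within each library, where scaling between libraries plays no part. Dnaja1 took 7.50 to 13.6% of the 10 genes' summed TPM in the 6 BM libraries and 17.3 to 45.7% in the 6 libraries from PT, so that each PT library, library 9 included, lay above each BM library. This share was picked out after its values were seen and carries no test. A higher share is not a higher level. In Bcl2 mean Dnaja1 was 189 TPM in BM and 165 in PT (log2 change -0.09), while the 10 genes summed to a mean of 1530 and 740 TPM. In WT mean Dnaja1 was 87.3 TPM in BM and 320 in PT, with sums of 810 and 925 TPM. The inducible HSP70 pair took at most 0.279% in BM and at most 1.29% in PT, and the chaperonin pair took 7.59 to 11.9% in BM and 1.45 to 8.498% in PT. Part of the 31-base words of Dnaja1 (22.6%) also occur in other genes, mostly its processed pseudogenes and the neighbouring Smu1.

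**Figure D3:**
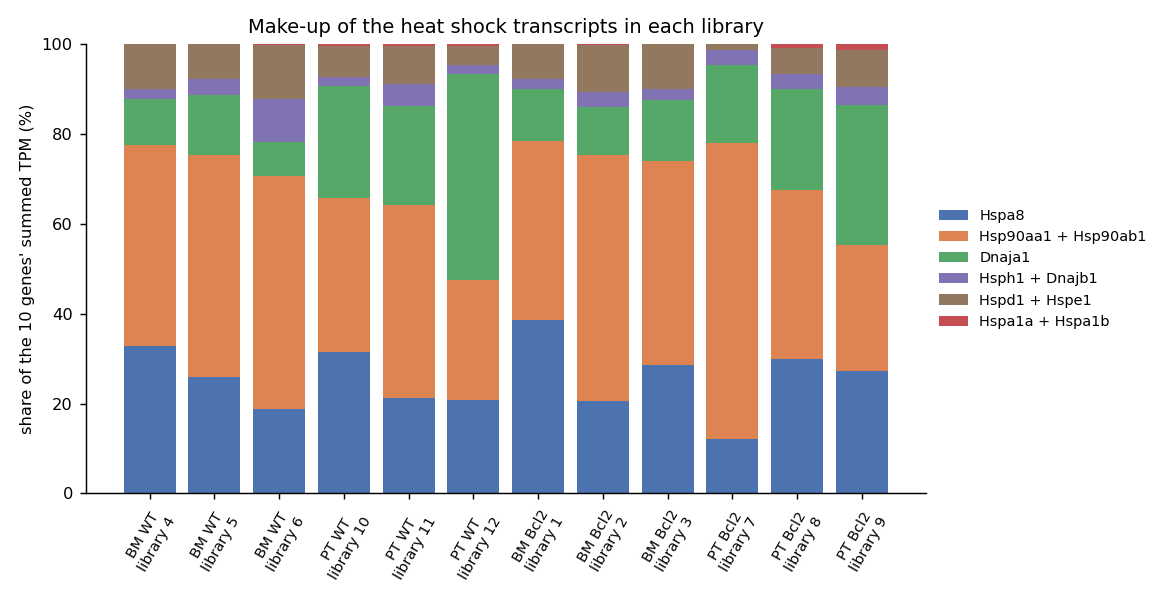
Share of each gene or pair in the summed TPM of the 10 genes, 1 bar per library, stacked to 100%. The Dnaja1 share runs from 7.50 to 13.6% in BM libraries and from 17.3 to 45.7% in PT libraries, and the inducible pair is at most 1.29%.

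Ratios were then tested between inducible and constitutive partners (exact two-sided permutation of tissue within genotype, 400 arrangements, smallest possible p 0.005, adjusted over 4 ratios). The ratio of Hspa1a plus Hspa1b to Hspa8, taken with 1 TPM added to each side, was higher in PT by 1.64 on the log2 scale (exact permutation p = 0.05, adjusted p = 0.147). It ran from -5.88 to -5.27 in PT WT and from -8.07 to -5.22 in BM WT, where library 6 alone, the highest of both, lay above the PT WT libraries. With 1 TPM added, this ratio is not free of the scaling between libraries. In libraries 5 and 7 the pair was at 0 TPM, so the ratio there (-7.67 and -7.14) follows from the Hspa8 level alone. The ratio of Hsp90aa1 to Hsp90ab1 differed by 0.38 (exact permutation p = 0.35, adjusted p = 0.35). The ratio of Dnajb1 to Dnaja1 differed by -1.27 (exact permutation p = 0.11, adjusted p = 0.147), with -2.26 in WT and -0.28 in Bcl2. The ratio of Hspe1 to Hspd1 differed by 1.25 (exact permutation p = 0.085, adjusted p = 0.147).

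None of the 4 ratios passed the adjusted threshold. In Bcl2 the Hspe1 to Hspd1 ratio was -1.29, -0.0043 and -0.096 (log2) in BM libraries 1 to 3 and 3.82, 1.499 and 0.47 in libraries 7 to 9 labelled PT Bcl2. The groups did not overlap, and the exact permutation p of 0.1 is the smallest that 3 against 3 libraries allow. In WT the difference was 0.11 (exact permutation p = 0.9). Without library 9 the difference over both genotypes was 1.61 (adjusted exact permutation p = 0.16), and those of the other 3 ratios, in the order above, were 1.36, 0.33 and -1.10 (adjusted exact permutation p = 0.16, 0.48 and 0.26). Library 7, with few Hspd1 reads, lay furthest out.

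**Figure D4:**
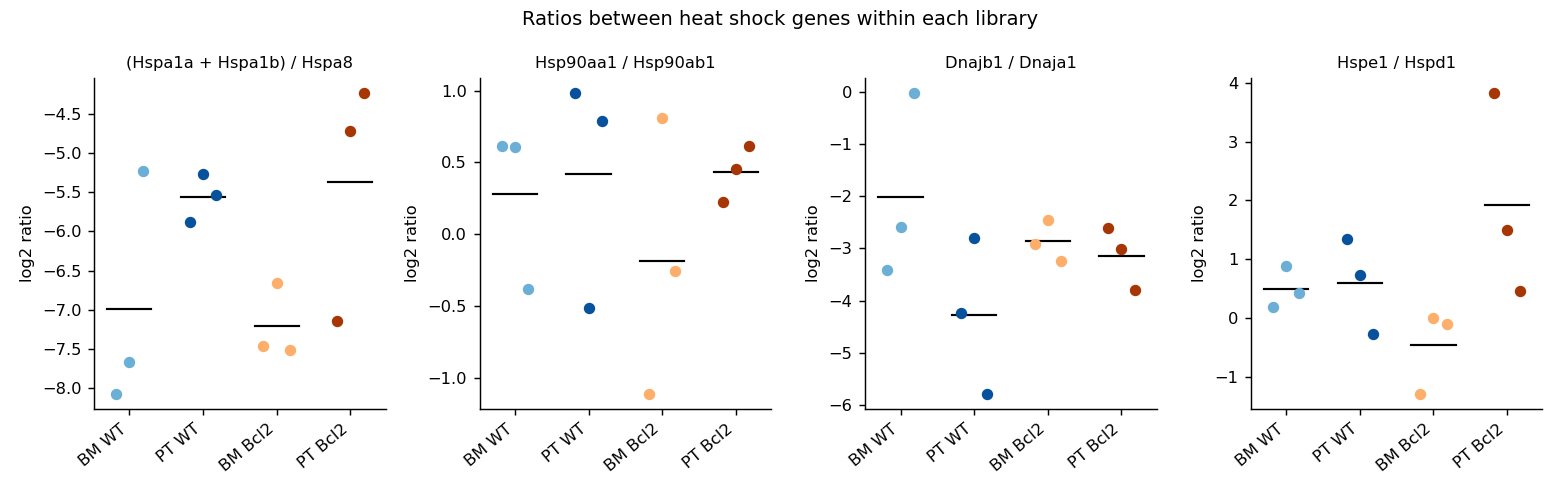
The 4 log2 ratios within each library, with 1 point per library and the mean of each group as a black line. The Hspe1 to Hspd1 ratio in PT Bcl2 (0.47 to 3.82) lies above BM Bcl2 (-1.29 to -0.0043), while in WT the 2 tissues overlap.

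Other genes of the chaperone network were examined from 10 lists, chosen with earlier results of these data known. They hold 92 genes besides the members, 75 of them tested. In Bcl2 mice 31 were lower in PT and 2 were higher, beside the 19.1% lower and 2.31% higher among all tested genes, and their median change was -1.99 against -1.02 for all genes. In WT mice none was called and the median was 0.02. At an unadjusted p under 0.05 there were 4 (2 in each direction), beside 1373 higher and 850 lower of all 13456 tested genes. No gene of these lists was called for the difference between genotypes, so the WT and Bcl2 counts are not shown to differ. For that difference 22 of the 75 had an unadjusted p under 0.05 (0 higher, 22 lower), beside 49 higher and 2230 lower of all 13456 tested genes. The count of 31 (41.3% of the tested list) moved with scaling, as did that of all genes. It was 8 with libraries centred on their median (10.7%, against 3.47% of all tested genes lower), 11 with quantile normalization (14.7% against 5.79%) and 12 with TPM rescaled without the A- or T-rich genes (15.4% against 7.72%), and 2 genes were higher under each. It was 24 without library 9 (32.4% against 16.4%), 16 without library 2 (21.6% against 10.4%) and 12 without library 3 (16.2% against 8.17%).

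The lower genes came from most arms of the network, but 19.1% of all tested genes were also called lower in Bcl2. The counts of 3 of 11 J proteins and 1 of 4 other HSP70 family genes are near that share. Of the 8 subunits of CCT, the cytosolic chaperonin that folds actin and tubulin, 5 were lower in PT Bcl2, among them Cct6a (58.3 ± 31.7 in BM against 4.28 ± 6.77 TPM in PT, mean ± SD, n = 3, log2 -4.25, adjusted p = 0.00775), Cct2 (-3.51, adjusted p = 0.00249) and Cct7 (-3.37, adjusted p = 0.00721). Of 5 tested prefoldin subunits, which hand unfolded actin and tubulin to CCT, 4 were lower, including Pfdn4 (-4.27), Pfdn2 (-3.68) and Pfdn5 (-2.14, adjusted p = 0.0199). Of 17 HSP90 co-chaperones 7 were lower, including Nudc (53.8 ± 24.0 against 0.161 ± 0.278 TPM), Fkbp4 (43.6 ± 18.8 against 3.17 ± 4.58 TPM), which binds steroid receptor complexes, and Ppid (-3.54).

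Of 10 HSP70 partners 4 were lower in PT Bcl2, including the exchange factors Bag1 (-2.74, adjusted p = 0.0204) and Bag5 (-3.97) and the ubiquitin ligase Stub1 (-3.89). Of 12 mitochondrial chaperones 5 were lower, including Hscb, an iron-sulfur cluster co-chaperone, and Timm44, part of the import motor, neither of which had a value above 0 in libraries 7 to 9, and Dnaja3 (-2.61, adjusted p = 0.0391). Of 11 J proteins 3 were lower: Dnajc9 (-4.04), Dnajc13 (-1.99) and Dnajc2 (-2.81). Of 4 other HSP70 family genes 1 was lower, Hspa12b (-3.88, adjusted p = 0.0129). Only Hspb6 of the 9 small heat shock proteins was tested, and it was lower (-3.15, adjusted p = 0.0399). Of the genes named from these lists, Dnajc13, Dnajc2 and Hspb6 were no longer called without library 9 (adjusted p = 0.0938, 0.0630 and 0.142), and the others named as lower remained called. Without that library the lower counts were 5 for CCT, 4 for prefoldin, 6 for HSP90 co-chaperones, 3 for HSP70 partners, 3 for mitochondrial chaperones and 1 for J proteins. With libraries centred on their median, 2 CCT subunits, 1 prefoldin, 3 HSP90 co-chaperones, 1 HSP70 partner, 1 mitochondrial chaperone and 0 J proteins were still called lower by limma, and the median change was -1.38 for CCT, -0.98 for the HSP90 co-chaperones, -0.83 for prefoldin, -0.08 for J proteins and, with its sign turned, 0.32 for the other HSP70 family genes, beside 0.57 for all genes.

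**Figure D5:**
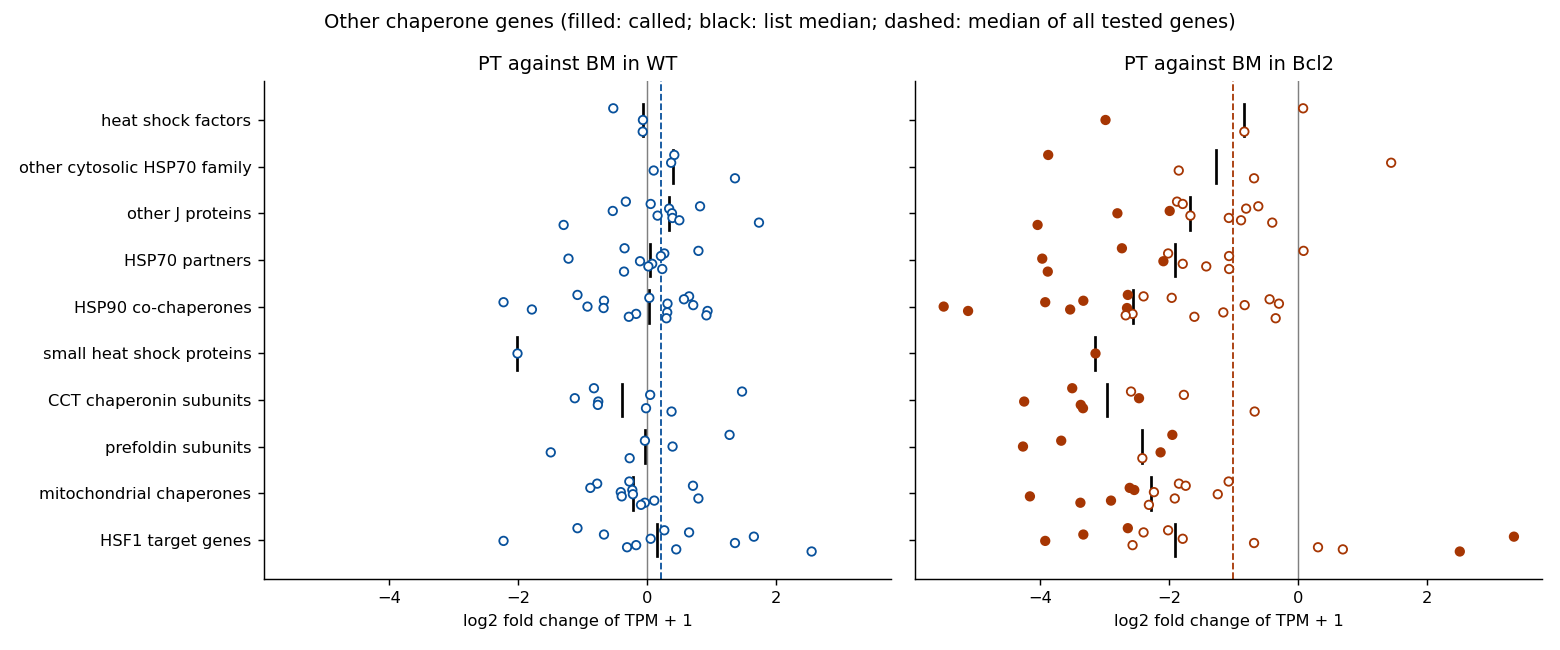
Change between PT and BM of each tested gene in the 10 chaperone lists, as log2 fold change of TPM + 1, in WT (left) and Bcl2 (right). Filled points are called, black bars are list medians and dashed lines are the medians of all tested genes (0.22 and -1.02). Called points lie in Bcl2 and, with the exception of 2 HSF1 targets, at negative values.

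HSF1 itself, the activator of the heat shock response, was lower in PT Bcl2 (25.8 ± 6.67 in BM against 3.11 ± 3.19 TPM, log2 -2.99, adjusted p = 0.0168), and its change in WT was -0.07 (adjusted p = 0.980). The lower call of Hsf1 held in 18 of 25 alternatives (-3.62 to -1.40) and in none of the 3 other scalings. Without library 9 it was at -2.97 (adjusted p = 0.0359). Among 12 tested genes of a list of HSF1 targets that leaves out the members, 3 were lower in Bcl2 and 2 were higher. Of all tested genes 19.1% were called lower and 2.31% higher there. The 2 higher genes were Zfand2a, which encodes a zinc finger protein induced by arsenite, and Dedd2, which encodes a death effector domain protein. Zfand2a was at 10.9 ± 2.45 TPM in BM Bcl2 and 68.6 ± 25.9 in PT Bcl2 (log2 2.50, SE 0.656, adjusted p = 0.0166), and at 6.91 ± 1.90 and 54.2 ± 33.1 TPM in WT (2.55, adjusted p = 0.0511). Dedd2 rose by 3.34 in Bcl2 (SE 0.816, adjusted p = 0.0121) and was at 1.65 in WT (adjusted p = 0.327). Its level was 13.3 ± 6.95 TPM in BM Bcl2 and 225 ± 280 in PT Bcl2, where libraries ran from 58.6 to 548 TPM. In WT Dedd2 was at 16.6 ± 1.31 (BM) and 62.1 ± 33.8 TPM (PT). Without library 9 they were at 2.68 and 3.91 in Bcl2 (adjusted p = 0.0275 and 0.0109). In Bcl2 Zfand2a was called in 23 of 25 alternatives and Dedd2 in 22 of 25, and in WT in 5 and 0 of 25. Averaged over genotypes both were called in all 24 alternatives (Zfand2a 2.35 to 3.21, Dedd2 1.98 to 3.19). The 3 lower targets were Fkbp4, Chordc1 (-3.33) and Ahsa1 (-2.64), the last 2 named after their values were seen, and all 3 are also on the list of HSP90 co-chaperones. Without library 9 Ahsa1 was not called (-2.69, adjusted p = 0.0509).

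Immediate early genes, which are switched on within minutes by many signals and by cell handling, were set beside them. Of 11, 4 were called higher in WT, 5 in Bcl2 and 7 averaged over genotypes, and none was lower, beside 1.59%, 2.31% and 5.13% of all tested genes called higher. The Bcl2 and averaged counts were also 5 and 7 without library 9. With libraries centred on their median 6 were higher in Bcl2, beside 12.2% of all tested genes. Atf3 rose by 4.64 in WT and 5.46 in Bcl2 (log2, adjusted p = 0.00599 and 0.000974), and Dusp1 by 3.72 and 4.35. Hspa1a, in the same libraries, changed by 1.45 in WT and 0.16 in Bcl2 (log2, limma adjusted p = 0.338 and 0.892). Both inducible HSP70 genes stayed at or under 5.87 TPM.

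Across the 12 libraries the members did not move as one. Pearson correlations of log2(TPM + 1) between the 36 pairs of tested members ran from -0.36 to 0.81, with a median of 0.40, and 31 were above 0. The points share library depth and the 4 groups, and the values are a description only. The Hspe1 and Hsph1 profiles were at 0.81 and those of Hspe1 and Hspd1 at 0.77, whereas Hspa1a and Hsp90ab1 were at -0.36. The genes most like the mean profile of the members were Npm1 (0.96), Gfm1 (0.95), Pmm1 (0.94), Il2rb (0.94) and Mfsd8 (0.94). For single members the most alike genes were Eif4b for Hspd1 (0.98), Plxnb2 for Hspe1 (0.96), Tor1b for Hspa8 (0.96), Rhoa for Hsp90ab1 (0.96), Chd6 for Hsph1 (0.94), Spock2 for Hspa1a (0.92), Gpr35 for Dnaja1 (0.92), Tsr3 for Hsp90aa1 (0.92) and Edc4 for Dnajb1 (0.89).

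Reads of several members can also fall on copies. Of the 31-base words of each member, 53.1% in Hspd1 (46.5% in the pseudogene Hspd1-ps3 alone), 51.5% in Hsp90aa1, 44.8% in Hspa8, 30.5% in Hspe1 and 13.2% in Hsp90ab1 occur in another annotated gene, against 0.444% in Dnajb1 and 0 in Hsph1. When members were summed with the listed copies that share at least 50% of their words, Hspd1 in Bcl2 was at -3.35 (adjusted p = 0.0119) and Hspa1a in WT at 1.66 (adjusted p = 0.437).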

How the data were processed

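Total RNA of sorted cells was amplified to cDNA, made into 12 libraries, sequenced and analysed by the authors with AltAnalyze at default values. The authors deposited log2(TPM + 1) per gene and library; the linear TPM averages they also deposited equal the group means within 7.7e-06. Genome build, aligner and version are not given in the sources used here. The authors' fold changes, p-values and marker scores were not used, nor were 2 columns of a library that no label names. Groups came from the deposited column names and marker table.

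Genes that reached 1 TPM in 3 libraries or more were compared with limma 3.58.1 (R 4.3.3, 1 fit of the 4 groups, eBayes with a trend, 8 residual degrees of freedom) on log2(TPM + 1), with Benjamini-Hochberg adjustment over all 13456 genes and a call at an adjusted p under 0.05 and at least 2-fold. Within-library ratios were compared by exact permutation. The fit was tested on simulated data. Read worth was estimated from the steps of low values of 5021 genes with 1 transcript (67.8 to 76.0% whole within 0.15 read, 30% by chance), assuming 255 nt fragments. The estimated reads on those genes came to 64461 to 307208 per library.

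Coordinates are GENCODE M21 (GRCm38), matched by Ensembl ID (27475 of 28987 genes). The members and lists were chosen with earlier results of these data known. Named genes besides the members are, per chaperone list, up to 3 genes called in WT, in Bcl2 or averaged, ordered by the size of the averaged change, plus the 5 genes most like the members' mean profile and the 1 most like each member by Pearson r. The alternatives included other pseudocounts, filters, scalings, thresholds and fits, and each library left out.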

Additional observations from a re-analysis of the deposited data

How the results depend on the processing

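Alternatives were a pseudocount of 0.1, no filter or at least 5 TPM, 3 other scalings, other thresholds, a fit of only the 2 groups, eBayes without a trend, protein-coding genes, summed Hspa1a and Hspa1b, each library left out, medians or an added 1 TPM for the ratios and, chosen after seeing the data, members summed with copies. The member called lower in Bcl2 (1) fell to 0 with libraries centred on their median, with TPM rescaled without the A- or T-rich genes, with only the 2 groups compared and at an adjusted p under 0.01, and ran from 0 to 2 with a library left out. Averaged over genotypes the count of 1 fell to 0 without the filter, with the rescaled TPM and at an adjusted p under 0.01, and ran from 0 to 2 with a library left out. The second genes called were Hspe1 in Bcl2 without library 1 and, in both comparisons, Hsp90ab1 without library 7. Hspd1 in Bcl2 kept its direction in all 25 alternatives (-4.25 to -1.79) and its call in 20, and averaged in 24 (-2.37 to -1.24) and 15. The ratio of Hspa1a plus Hspa1b to Hspa8 ran from 1.36 to 2.08 with a library left out and passed the threshold at 2.08 without library 6 (adjusted exact permutation p = 0.04). Of 1326 values for single members, 1224 stayed on their side of the threshold with the same direction, 84 uncalled values changed sign, 14 lost a call and 4 gained 1, and no called value reversed. Depth limits the low genes: 3 reads on Hspe1 were worth up to 6.93 TPM. No paired analysis was possible because the columns carry no replicate or mouse number, although both tissues were sampled from each mouse. The causes of these shifts were not tested.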
